A study of Homo sapiens with 12 samples.

Results

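The insulin-like growth factor (IGF) binding proteins IGFBP1, IGFBP2, IGFBP3 and IGFBP4 and the growth factor IGF2 were followed through insulin stimulation of HepG2, a cell line established from a liver cancer. The 5 genes were taken by name from the 26364 genes of the count table, and all 5 were among the 13852 genes that passed the filter on low counts. RNA-seq libraries were made at 0, 5, 10, 30 and 240 min after insulin stimulation, with 2 replicates at each time, and 1 chromatin immunoprecipitation (ChIP-seq) library was made with an antibody against the insulin receptor (IR). The 0 min libraries were the control, and no library without insulin was taken at 240 min, so insulin and the time that passed cannot be told apart. The treatment text attached to all 10 RNA-seq libraries names EMEM medium for 16 h and then 3 nM insulin for 5 min, at 0 min as well, whereas the titles give the times used here. The text attached to the ChIP-seq library and its input names 2 days in EMEM, 2 days in EMEM with insulin and BSA, a washout of 30 min and 3 nM insulin, with no length for this last step. The labels of the RNA-seq and ChIP-seq libraries also give 10% fetal bovine serum (FBS). The study's methods state that the RNA-seq was performed once, with biologically independent samples.

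Binding proteins carry IGFs in blood and tissue fluid and set how much growth factor reaches its receptors. The liver secretes IGFBP1, and its transcription is a classical target of insulin: insulin signaling through AKT moves the factor FOXO1 out of the nucleus and transcription of IGFBP1 drops. IGFBP2 is the other main binding protein of hepatocytes and favours IGF2. IGFBP3 is the chief carrier of IGFs in plasma and is made in the liver mostly by cells other than hepatocytes. IGFBP4 is an inhibitory binding protein that the protease PAPPA cleaves. IGF2 is a fetal growth factor that is expressed from the paternal allele and is often retained in liver cancer.

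In bulk RNA, fewer cells that express a gene and less RNA per cell cannot be told apart. Libraries held 18347109 to 45005769 reads counted on genes, and the 2 replicates at each time were not alike within counting noise (chi-square divided by its degrees of freedom, 2.86 to 6.46). Hepatocyte markers were abundant, with ALB at 13892 to 20349 CPM (counts scaled to library size). The immune cell marker PTPRC was at 0 counts in every library. The immune marker CD3E, the endothelial marker KDR and the fibroblast markers COL1A2 and DCN had at most 1 count in a library. Other markers on the same lists were detected. Of the immune markers, CD68 was at 36.3 to 45.3 CPM and CD14 at 0.24 to 0.74 CPM. The endothelial PECAM1, VWF and CDH5 were at 1.75 to 3.00, 0.42 to 1.16 and 0.053 to 0.38 CPM. Of the fibroblast markers, PDGFRB was at 8.52 to 13.7 CPM and COL1A1 at 0.86 to 1.94 CPM. The summed level of the 8 hepatocyte markers ranged from 66418 to 82312 CPM and was lowest in replicate 2 at 240 min and replicate 2 at 30 min.

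On hg19, IGFBP1 lies on chromosome 7 at 45927959 to 45933267 on the plus strand, and IGFBP3 lies 18.6 kb further on, at 45951844 to 45960871 on the minus strand. IGFBP2 lies on chromosome 2 at 217498127 to 217529158 and IGFBP4 on chromosome 17 at 38599676 to 38613982, both on the plus strand. IGF2 lies on chromosome 11 at 2150342 to 2170833 on the minus strand. The 250 bases before the transcription start are shown for IGFBP2, IGFBP3 and IGFBP4, the 3 of the 5 genes matched in the promoter table, so that the sequence can be read beside the values of each gene. IGFBP1 and IGF2 were not analysed in this way. The sequences are from RefSeq on GRCh38.p14, each on the strand of its gene, at chr2:216633170-216633419 for IGFBP2, chr7:45921273-45921522 for IGFBP3 and chr17:40443200-40443449 for IGFBP4. Capitals mark a match to a searched motif.
IGFBP2: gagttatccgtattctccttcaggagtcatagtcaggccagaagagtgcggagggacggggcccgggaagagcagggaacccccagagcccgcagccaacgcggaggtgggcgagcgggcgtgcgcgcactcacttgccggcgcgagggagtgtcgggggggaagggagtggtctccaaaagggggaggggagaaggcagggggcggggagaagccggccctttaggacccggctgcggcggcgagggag
IGFBP3: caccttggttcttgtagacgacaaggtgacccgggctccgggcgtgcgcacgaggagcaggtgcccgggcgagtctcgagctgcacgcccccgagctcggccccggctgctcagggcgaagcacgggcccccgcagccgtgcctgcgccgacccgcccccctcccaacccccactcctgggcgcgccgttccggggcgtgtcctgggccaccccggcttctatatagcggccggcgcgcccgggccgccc
IGFBP4: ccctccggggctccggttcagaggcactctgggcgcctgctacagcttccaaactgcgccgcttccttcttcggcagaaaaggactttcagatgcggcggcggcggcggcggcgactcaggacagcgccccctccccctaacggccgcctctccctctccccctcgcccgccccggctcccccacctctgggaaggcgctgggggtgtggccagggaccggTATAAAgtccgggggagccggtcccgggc
The windows were GC-rich, with 69.2% G and C for IGFBP2, 76.0% for IGFBP3 and 71.6% for IGFBP4, against a median of 58.0% over 35116 promoters. They held 22, 32 and 24 CpG dinucleotides. The forkhead motif TGTTTAC, which FOXO and FOXA factors bind, and the insulin response motifs TGTTTTG and TATTTTG were searched on both strands and matched none of the 3 windows. These motifs were found in 2.98%, 4.30% and 3.94% of all promoter windows of this length. The TATA box letters TATAAA, found in 10.7% of promoter windows, matched once, in IGFBP4 at 29 bases before the start. The windows of 2 further RefSeq starts of IGFBP2 held none of the 4 motifs either.

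IGFBP1 fell in the first 10 min of insulin, stood at about the same reduced level at 30 min and was far lower at 240 min. At 0 min it was at 270 and 290 CPM in replicates 1 and 2, and at 5 min at 266 and 272 CPM. At 10 min it was at 188 and 215 CPM, and at 30 min at 222 and 217 CPM. At 240 min it was at 36.7 and 39.9 CPM. All libraries at 10, 30 and 240 min were below all libraries at 0 and 5 min, and the 240 min libraries were far below the rest.

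**Figure D1:**
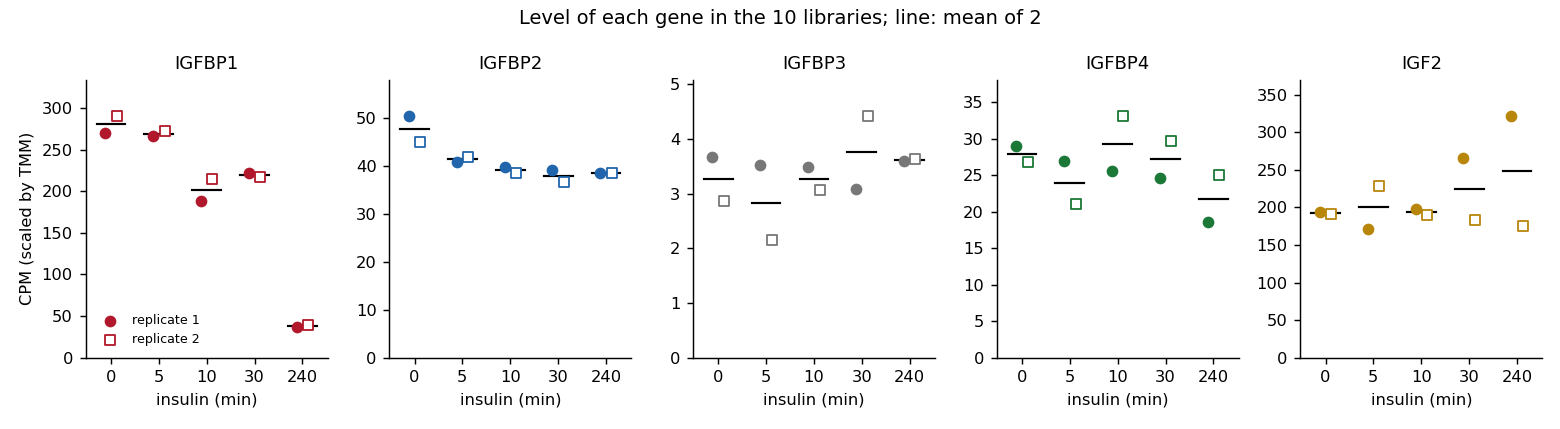
Level of IGFBP1, IGFBP2, IGFBP3, IGFBP4 and IGF2 in CPM (linear axes that start at 0, scaled per gene) at each time of insulin, with a filled circle for replicate 1, an open square for replicate 2 and a line at their mean. IGFBP1 goes from a mean of 280 CPM at 0 min to 38.3 CPM at 240 min, IGFBP2 is lower in every insulin library than at 0 min, and the replicates of IGF2 lie apart at 30 and 240 min.

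The comparisons with 0 min used the quasi-likelihood test of edgeR with all 10 libraries in 1 fit and Benjamini-Hochberg adjustment over the 13852 genes. At 5 min none of the 5 genes passed, and IGFBP1 had a log2 fold change of -0.06 (SE 0.058, 95% interval -0.18 to 0.06, adjusted p = 0.668). Over all genes, 0% passed at 5 min, where DESeq2 called 0 genes, edgeR's likelihood ratio test 19, and 1976 genes had an unadjusted p under 0.05. Among the 5 genes that last group held IGFBP2 alone, and neither DESeq2 nor the likelihood ratio test called any of them.

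At 10 min IGFBP1 was the 1 gene of the 5 that passed, and 0.137% of all genes passed. Its mean of 202 ± 18.7 CPM (SD, n = 2) was 0.719 times that at 0 min, 280 ± 14.2 CPM, a log2 fold change of -0.48 (SE 0.058, adjusted p = 0.000269). By p-value it ranked 6 among the genes tested, of which 6 were called higher and 13 lower. At 30 min its mean was 220 ± 3.94 CPM, a log2 fold change of -0.35 (SE 0.058, adjusted p = 0.00656), and it was called together with IGFBP2, 2 of the 5 against 0.332% of all genes. By limma on the TPM values IGFBP1 was not called at either time, with log2 fold changes of -0.47 (adjusted p = 0.352) and -0.32 (adjusted p = 0.601). The call at 30 min was also lost without replicate 2 at 0 min (adjusted p = 0.0941), without replicate 2 at 30 min (adjusted p = 0.0952) and with scaling to the ERCC spike-in RNA (adjusted p = 0.911).

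At 240 min IGFBP1 was at 38.3 ± 2.26 CPM, 7.35-fold lower than at 0 min, with a log2 fold change of -2.88 (SE 0.067, 95% interval -3.02 to -2.74, adjusted p = 3.63e-16). It had the smallest p of all 13852 genes and the 3rd lowest fold change. It was called with every library left out in turn and with each of 12 other settings. In all, 3 of the 5 genes were called at 240 min, IGFBP1, IGFBP2 and IGFBP4, all lower, where 41% of all genes were called.

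Neighbouring times placed the fall of IGFBP1 in 2 intervals. Between 5 and 10 min its log2 fold change was -0.42 (SE 0.058, adjusted p = 0.00201), and it was the 1 of the 5 genes called in an interval where 0.26% of all genes passed. Between 10 and 30 min it was 0.12 (SE 0.059, 95% interval 0.00086 to 0.25, adjusted p = 0.997), and none of the 5 genes passed, against 0.00722% of all genes, with 1 of the 5 and 541 of all genes at an unadjusted p under 0.05 and none of the 5 called by DESeq2 or the likelihood ratio test. Between 30 and 240 min it was -2.52 (SE 0.067, adjusted p = 4.48e-15), again as the 1 gene of the 5 called, against 38.2% of all genes. On the log2 scale 16.6% of the change at 240 min was present at 10 min and 12.3% at 30 min. The call between 5 and 10 min was lost without replicate 1 at 10 min, where the change was -0.32 (adjusted p = 0.128), and with ERCC scaling, where it was -0.67 (adjusted p = 0.188).

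The share of ERCC reads was highest in replicate 2 at 10 min, at 2.36%, against 1.59% to 1.91% in the other libraries. Scaled to these spike-ins, the median of all genes moved by -0.33 on the log2 scale at 10 min, -0.13 at 30 min and -0.12 at 240 min. Relative to that median, IGFBP1 stood at -0.49, -0.35 and -2.88 at these times.

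**Figure D2:**
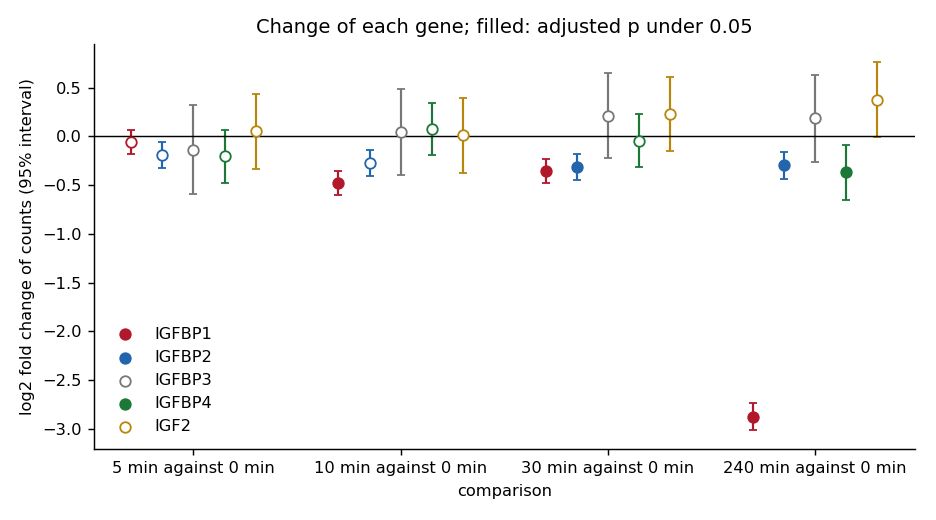
Log2 fold change of counts against 0 min, with 95% intervals, for the 5 genes at 5, 10, 30 and 240 min of insulin; filled points have an adjusted p under 0.05 and open points do not. IGFBP1 is called from 10 min on and stands at -2.88 at 240 min, IGFBP2 is called at 30 and 240 min near -0.3, and IGFBP4 is called at 240 min.

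IGFBP2 had a smaller fall, called at 30 and 240 min, and its level at 240 min was close to that at 30 min. Its libraries were at 50.5 and 45.0 CPM at 0 min, 40.9 and 42.0 CPM at 5 min, and 39.8 and 38.7 CPM at 10 min. They were at 39.3 and 36.7 CPM at 30 min and at 38.5 and 38.6 CPM at 240 min. Every insulin library was below both 0 min libraries. The log2 fold change was -0.19 at 5 min (SE 0.064, adjusted p = 0.253) and -0.27 at 10 min (SE 0.064, adjusted p = 0.155), neither called. It was -0.32 at 30 min (SE 0.064, adjusted p = 0.0319) and -0.30 at 240 min (SE 0.065, adjusted p = 0.0011), both called. Between 30 and 240 min it was 0.02, with a 95% interval of -0.12 to 0.16. The call at 30 min was lost without replicate 1 at 0 min, where the change was -0.24 (adjusted p = 0.602), in 4 other fits that left out 1 library at 10 or 30 min, by limma on TPM and with ERCC scaling. With ERCC scaling the call at 240 min was lost too (log2 fold change -0.42, adjusted p = 0.166).

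IGFBP4 was called at 240 min, with wide replicates. It was at 29.1 and 26.9 CPM at 0 min, 27.0 and 21.1 CPM at 5 min, and 25.6 and 33.1 CPM at 10 min. It was at 24.7 and 29.7 CPM at 30 min and at 18.6 and 25.0 CPM at 240 min. Both 240 min libraries were below both 0 min libraries, but they overlapped those at 5 and 30 min. The log2 fold change at 240 min was -0.37 (SE 0.14, 95% interval -0.65 to -0.09, adjusted p = 0.0348). DESeq2 did not call it (adjusted p = 0.208), nor did limma on TPM (adjusted p = 0.335) or ERCC scaling (adjusted p = 0.103), and without replicate 1 at 240 min the change was -0.16 (adjusted p = 0.468). At 5, 10 and 30 min its adjusted p was at least 0.485.

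IGFBP3 was the least abundant of the 5, with 45 to 128 reads in a library. It ranged from 2.15 CPM in replicate 2 at 5 min to 4.42 CPM in replicate 2 at 30 min, and every insulin time overlapped 0 min. No comparison passed, and at 240 min the log2 fold change was 0.19, with a 95% interval of -0.26 to 0.63, so that a change of that size was not detectable at this depth and spread. IGFBP3 and IGFBP1, neighbours on chromosome 7, thus stood at 0.19 and -2.88 at 240 min.

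The replicates of IGF2 lay apart at 30 and 240 min. With all 10 libraries and the filter on low counts, IGF2 was not called at any time. It was at 193 and 191 CPM at 0 min, 171 and 229 CPM at 5 min, and 198 and 190 CPM at 10 min. It was at 266 and 183 CPM at 30 min and at 321 and 176 CPM at 240 min. Replicate 1 was thus above both 0 min libraries at 30 and 240 min, and replicate 2 was below both. The log2 fold change at 240 min was 0.38 (SE 0.18, 95% interval -0.01 to 0.76, adjusted p = 0.108). It was -0.13 without replicate 1 at 240 min and 0.74 without replicate 2, so that its direction rested on replicate 1. Without the filter on low counts IGF2 was called at 30 min (log2 fold change 0.23, adjusted p = 0.00355) and at 240 min (log2 fold change 0.38, adjusted p = 2.32e-11). Of 13 other settings this was the 1 that called it against 0 min. Apart from these settings, 1 of the 10 fits with a library left out called it at 240 min. At 240 min the ratio of replicate 1 to replicate 2 was 1.83 for IGF2, 1.41 for AFP, 1.34 for ALB, 1.29 for TF and 1.01 for HNF4A, and at 30 min it was 1.45 for IGF2, 1.30 for AFP and 1.32 for ALB. The part of this shift of secreted liver proteins in the result for IGF2 was not tested.

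The gene INS-IGF2, which spans IGF2 and the insulin gene upstream and ends at the same base, had 0 counts and was listed at 0 TPM in all 10 libraries. The antisense gene IGF2-AS had 10 to 31 reads in a library and was not called at 240 min (log2 fold change 0.55, SE 0.31, adjusted p = 0.173). H19, the imprinted neighbour expressed from the maternal allele, had 0 to 4 reads in a library. The sources used here do not say how reads in both IGF2 and INS-IGF2 were counted, so whether its counts hold all reads of IGF2 is not known.

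Between genes, levels were compared per length, in the TPM values that the authors deposited. IGF2 was the most abundant of the 5 in each library, at 1006 and 1058 TPM at 0 min and 1700 and 1006 TPM at 240 min. IGFBP1 came next at 0, 5, 10 and 30 min, with 401 and 438 TPM at 0 min and 335 and 334 TPM at 30 min, above IGFBP2 at 65.1 to 86.6 TPM at these times. At 240 min this order changed: IGFBP1, at 55.9 and 61.9 TPM, was below IGFBP2, at 67.7 and 69.5 TPM, without overlap of the libraries. IGFBP4 followed at 20.8 to 36.1 TPM and IGFBP3 at 2.02 to 4.25 TPM in the 10 libraries. No pair of neighbours in this order overlapped at any time.

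The makeup of the binding protein transcripts at 240 min differed from that before. IGFBP1 made up 73.8% to 80.7% of the summed TPM of the 4 binding proteins in the libraries at 0 to 30 min, and 37.8% and 37.9% at 240 min. IGFBP2 made up 14.1% to 18.0% before and 45.8% and 42.5% at 240 min. IGFBP4 made up 4.57% to 8.51% before and 14.0% and 17.5% at 240 min. The summed TPM of the 4 genes was 523 and 549 at 0 min and had come down to 386 and 424 in the libraries of 10 min. It stood at 433 and 437 after 30 min of insulin, then at 148 and 164 after 240 min. The TPM of IGF2 was 1.93 times that sum in both libraries at 0 min, and 11.5 and 6.15 times at 240 min.

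**Figure D3:**
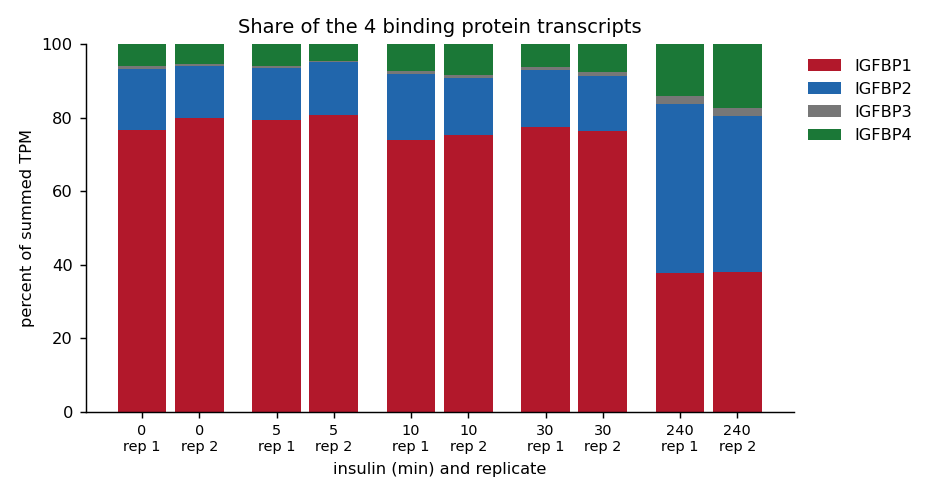
Share of each of the 4 binding proteins in their summed TPM, in percent, for the 2 replicates at each time of insulin. IGFBP1 holds 73.8% to 80.7% of the sum up to 30 min and 37.8% and 37.9% at 240 min, where IGFBP2 has the largest share.

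The timing of IGFBP1 was set against that of each other gene within the same library, which removes any scaling between libraries. The log2 ratio of the CPM of IGFBP1 to that of IGFBP2 was 2.42 and 2.69 at 0 min. It was 2.24 and 2.47 after 10 min of insulin, 2.50 and 2.56 after 30 min, and -0.07 and 0.04 after 240 min. At 5 min the ratio to IGFBP2 was above 0 min without overlap, by 0.14 on average. It overlapped 0 min at 10 and 30 min and left it at 240 min, by -2.57. Against IGFBP4 the ratio was 3.21 and 3.43 at 0 min. It was 2.88 and 2.70 after 10 min of insulin, 3.17 and 2.87 after 30 min, and 0.98 and 0.67 after 240 min. The ratio to IGFBP3 was lower than at 0 min by 0.49 on average at 10 min and the ratio to IGF2 by 0.49 as well, in both cases without overlap. At 240 min the mean differences were -3.03 for IGFBP3, -2.50 for IGFBP4 and -3.18 for IGF2. With 2 libraries against 2, a two-sided exact permutation test cannot give p below 0.333 (0.485 after adjustment over 16 tests), which is the value for each of these differences at 240 min.

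**Figure D4:**
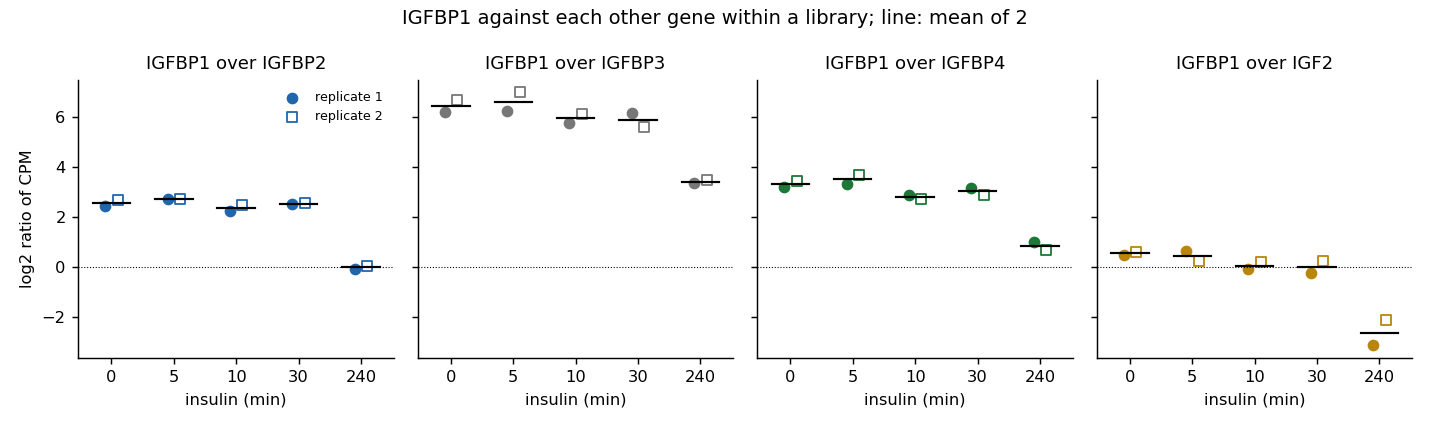
Log2 ratio of the CPM of IGFBP1 to that of IGFBP2, IGFBP3, IGFBP4 and IGF2 in each library, with a filled circle for replicate 1, an open square for replicate 2, a line at their mean and a dotted line at equal CPM. In each panel both libraries at 240 min are below all others. The ratio to IGFBP2 has means of 2.55, 2.70, 2.36 and 2.53 at 0, 5, 10 and 30 min.

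Other genes of the IGF system were examined in 6 lists with 61 genes, of which 49 were tested. At 5, 10 and 30 min edgeR called 0 of the 49, with 8, 7 and 9 at an unadjusted p under 0.05, and DESeq2 called 0 as well. The likelihood ratio test called 0, 1 and 1, in both cases FOXA3, a liver forkhead factor named after its values were seen, with log2 fold changes of -0.37 at 10 min and -0.34 at 30 min. At 240 min 24 of the 49 were called by edgeR, where 41% of all genes were called, so that the lists as a whole stood near the background. DESeq2 called 21 of the 49 and limma on TPM 17. Over all genes tested, DESeq2 called 4409 of 13487 and limma on TPM 4155 of 18380. With ERCC scaling the calls came down to 0 among the other binding proteins and 1 among the proteases. They came down to 0 at the IGF2 locus and 1 among the transcription factors. Over all genes, that scaling called 1059 of 13852, against 5676 in the main fit.

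Of the binding proteins and relatives outside the 5 genes, 1 of 4 tested was called at 240 min. This was IGFBP6, which prefers IGF2 and fell from 3.81 to 2.71 CPM (log2 fold change -0.51, SE 0.19, adjusted p = 0.0377), a call that DESeq2 did not make. IGFBP5 was at 0.046 and 0.11 CPM at 0 min, with 0 to 5 reads in a library, and was not tested. The list's median log2 fold change was 0.10, against 0.00 over all genes.

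All 3 tested receptors fell at 240 min, where 41% of all genes were called, 2829 of 13852 as lower. INSR, the insulin receptor, was at 201 and 219 CPM at 0 min and 144 and 132 CPM at 240 min (log2 fold change -0.61, SE 0.056, adjusted p = 8.32e-08). IGF1R, the signaling receptor for IGF1 and IGF2, was at 218 and 235 CPM and then at 150 and 151 CPM (log2 fold change -0.59, SE 0.049, adjusted p = 2.44e-08). IGF2R, which takes IGF2 to lysosomes, fell less (log2 fold change -0.25, SE 0.051, adjusted p = 0.000621). At 5, 10 and 30 min each had a log2 fold change between -0.01 and 0.08 and none was called. The ligand genes IGF1, at 0 to 3 reads in a library, and INS, at 0 CPM at 0 and 240 min, were not tested.

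Of the proteases of the binding proteins and their inhibitors, 1 rose, 1 fell and 7 of 9 tested were not called at 240 min, against 41% of all genes called. The median of their log2 fold changes was 0.11. STC2, a secreted inhibitor of PAPPA, was at 24.9 and 22.9 CPM at 0 min and 50.8 and 51.4 CPM at 240 min (log2 fold change 1.10, SE 0.072, adjusted p = 1.32e-09). CTSD, a lysosomal protease, fell (log2 fold change -0.28, SE 0.060, adjusted p = 0.00093). PAPPA itself was at 0.46 CPM at 0 min and 0.64 CPM at 240 min and was not called.

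Of the genes of the IGF2 locus and the proteins that bind IGF2 mRNA, 2 rose, 1 fell and 4 were not called at 240 min, with a median of 0.09. These 3 calls among 7 genes were near the 41% of all genes called. IGF2BP2, which binds IGF2 mRNA, fell (log2 fold change -0.38, SE 0.049, adjusted p = 4.45e-06). CTCF, which insulates IGF2 from enhancers on the maternal allele, rose by 0.37 (SE 0.046, adjusted p = 3.52e-06), and HMGA2, an architectural chromatin protein, rose by 0.25 (SE 0.050, adjusted p = 0.000446). IGF2BP1 and IGF2BP3 had log2 fold changes of 0.09 and -0.06 and were not called.

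Of 14 transcription factors known to act on IGFBP1, 2 rose, 3 fell and 9 were not called at 240 min, with a median of -0.03. These 5 calls among 14 genes were no larger a share than the 41% of all genes called. The FOXO factors, which drive IGFBP1 when insulin is low, were the 3 that fell: FOXO4 by 0.84 (SE 0.082, adjusted p = 1.82e-07), FOXO3 by 0.26 and FOXO1 by 0.22 on the log2 scale. FOXA1, a liver forkhead factor, rose by 0.45 (adjusted p = 1.93e-05) and HIF1A, the hypoxia factor, by 0.42 (adjusted p = 4.93e-06).

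Of 12 tested genes that insulin is known to repress or that FOXO factors activate, 9 fell, 1 rose and 2 were not called at 240 min, with a median of -0.73. Of all genes tested, 41% were called at this time, 2829 of 13852 as lower. G6PC, which releases glucose, was at 28.0 and 38.8 CPM at 0 min and 10.2 and 5.57 CPM at 240 min (log2 fold change -2.07, SE 0.21, adjusted p = 2.21e-07). CCNG2, a FOXO target that slows the cell cycle, fell by 1.69 (SE 0.085, adjusted p = 3.35e-11) and PCK1, of gluconeogenesis, by 1.32 (SE 0.14, adjusted p = 3.63e-07). GADD45A, a stress gene, rose by 0.23 (adjusted p = 0.0393). By its log2 fold change of -2.88, IGFBP1 was further below 0 min than each tested gene of the 6 lists, and its 95% interval lay below that of G6PC, -2.50 to -1.63.

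**Figure D5:**
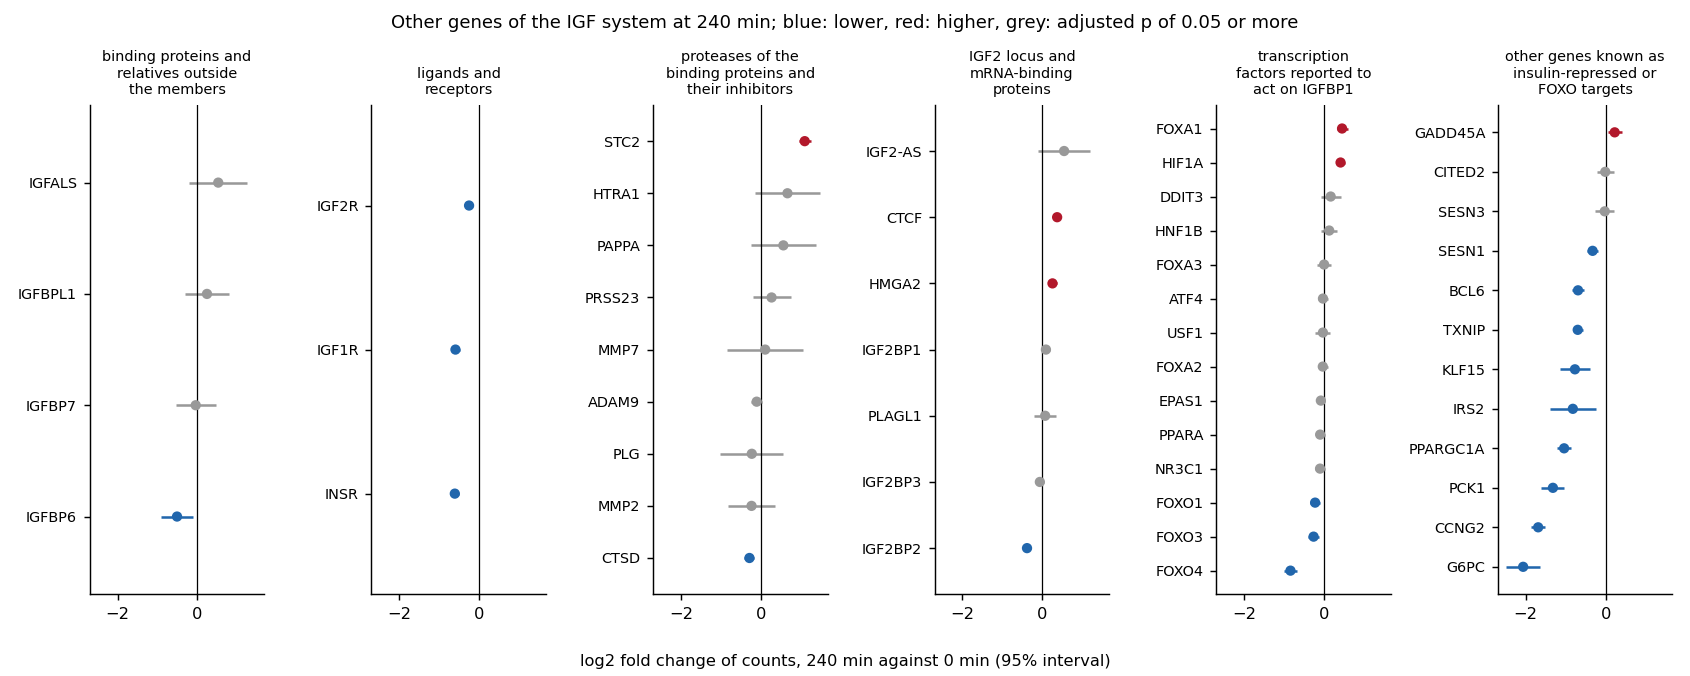
Log2 fold change of counts at 240 min against 0 min, with 95% intervals, for the 49 tested genes of the 6 lists; blue points are called lower, red points higher and grey points have an adjusted p of 0.05 or more. The 3 receptors and 9 of 12 insulin-repressed genes are lower, and STC2 is higher, at 1.10. Of all 13852 genes tested, 2829 were called lower.

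Genes whose levels over the 10 libraries were most like IGFBP1 were C10orf10, PNRC1, FST, ADGRG6 and SLC38A2, with Pearson r of log2 CPM of 0.993 to 0.995 among 10387 genes that averaged 5 CPM or more. The 10 libraries share the large step at 240 min, which dominates such an r. C10orf10, a FOXO target also named DEPP1, was at 88.3 and 97.6 CPM at 0 min, 64.9 and 60.9 CPM at 10 min, 62.3 and 54.2 CPM at 30 min, and 7.28 and 7.52 CPM at 240 min. It was called at 10 min (log2 fold change -0.57, SE 0.065, adjusted p = 0.000149), at 30 min (-0.67, SE 0.065, adjusted p = 2.48e-05) and at 240 min (-3.66, SE 0.089, adjusted p = 3.88e-16), the times at which IGFBP1 was called. FST, the activin inhibitor follistatin, PNRC1, a coregulator of nuclear receptors, ADGRG6, an adhesion receptor, and SLC38A2, an amino acid transporter, were called at 240 min, with log2 fold changes of -2.07, -1.24, -1.01 and -1.06, and at none of the earlier times.

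In the IR ChIP-seq, 1 of the 5 genes had a peak within 5 kb of its body. The share of all genes with such a peak was not computed, so this count has no background to be read against. The peak at IGF2 lay on chromosome 11 at 2159009 to 2159560 on hg19, 552 bases wide, and overlapped the untranslated part of exons of 2 IGF2 transcripts and no coding exon, and HOMER annotated it as promoter. The nearest starts of IGF2 transcripts were 474 to 492 bases downstream of it. Its score of 79 ranked 983 of 1971 peaks and equalled the median score of 79. The nearest peaks to IGFBP1, IGFBP3, IGFBP4 and IGFBP2 were 888, 912, 303 and 221 kb from the gene bodies. With 1 library there was no test. The treatment text of the ChIP-seq library differs from that of the RNA-seq libraries, and a link between peaks and RNA levels was not tested.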

How the data were processed

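RNA-seq of HepG2 cells at 5 times of insulin stimulation, with 2 libraries each, and 1 IR ChIP-seq library were analysed. The authors trimmed single-end reads with Trim Galore 0.6.4, aligned them to hg19 with STAR 2.6.1d, counted them on genes as reverse-stranded with featureCounts 1.6.4 and deposited raw counts. The authors also deposited TPM values from StringTie. For the ChIP-seq the authors aligned reads with BWA 0.7.17-r1188, called peaks with MACS2 2.2.7.1 in the single library and deposited a peak score annotated by HOMER. Duplicate reads were marked, and their removal is not given in the sources used here. The protocol texts of the RNA-seq and ChIP-seq libraries look exchanged: the RNA-seq libraries carry a DNA extraction with 75-base reads, and the ChIP-seq library carries the stranded RNA kit with 50-base reads that the study's methods give for RNA.

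The 92 ERCC rows carry no gene name and held 1.59% to 2.36% of the counts. They entered neither library sizes nor tests. Counts were scaled by TMM, filtered by filterByExpr and tested by the quasi-likelihood test of edgeR 4.0.16 (R 4.3.3) in 1 model of 10 libraries, with Benjamini-Hochberg adjustment over all genes tested and a threshold of 0.05. A call means an adjusted p under it. Each standard error is the fold change divided by the square root of F. The test was also run on simulated counts with the same spread for all genes and no shift between replicates. That setting is simpler than these data, so it does not show how the test performs on them. Alternatives were DESeq2 1.42.0, limma 3.58.1 on log2(TPM + 1), log2(TPM + 0.1) and genes that averaged 1 TPM or more, edgeR's likelihood ratio test, other filters, normalizations and ERCC scaling, only the times compared, a replicate block, the sum of IGF2 and INS-IGF2, peaks scored above the median, and each library left out in turn. Fold changes on TPM are on the log2(TPM + pseudocount) scale. Ratios between genes were tested by a two-sided exact permutation test.

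The 5 genes and the 6 lists were chosen with earlier results of these data known, and 1 gene of a list is not reported here. Named from each list were the up to 3 largest rises and 3 largest falls among calls at 240 min and any call before, with INSR, IGF1R, INS-IGF2, IGF2-AS and H19, the 5 genes most like IGFBP1 and the 3 most like each other member. Promoter windows came from RefSeq on GRCh38.p14, and annotation of the peak from GENCODE on GRCh37. Scripts used Python 3.11.15 with pandas 2.3.3, numpy 2.4.6, scipy 1.17.1 and matplotlib 3.10.9. Intervals cover the spread between libraries of 1 experiment.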

Additional observations from a re-analysis of the deposited data

Results flagged for a closer look

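The change of IGFBP1 against 0 min differed between neighbouring times in the test of that difference. Between 5 and 10 min IGFBP1 moved by -0.42 on the log2 scale (edgeR quasi-likelihood test, adjusted p = 0.00201), where 0.26% of all genes were called. Both 10 min libraries were below both 5 min libraries, and the call was lost by limma on TPM and with ERCC scaling. Between 30 and 240 min IGFBP1 moved by -2.52 (adjusted p = 4.48e-15), where 38.2% of all genes were called. Both 240 min libraries were below both 30 min libraries.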

How the results depend on the processing

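The fall of IGFBP1 at 240 min kept its direction and its call in all 12 other settings (log2 fold change -2.99 to -2.81) and with each library left out (-2.94 to -2.82). Calls that changed were those of IGFBP1 before 240 min and those of IGFBP2, IGFBP4 and IGF2, and the cause was not tested. With limma on log2(TPM + 1), log2(TPM + 0.1) and genes that averaged 1 TPM or more, IGFBP1 was not called at 10 min (-0.47, -0.48, -0.47), 30 min (-0.32, -0.33, -0.32) or 10 against 5 min (-0.43, -0.43, -0.43), nor IGFBP4 at 240 min (-0.32, -0.33, -0.32), so 0 of the 5 genes were called at 10 min, 30 min and 10 against 5 min. With ERCC scaling, IGFBP1 at 30 min (-0.48) and 10 against 5 min (-0.67), IGFBP2 (-0.42) and IGFBP4 (-0.49) at 240 min were not called, leaving 0 called at 30 min, 0 at 10 against 5 min and 1 at 240 min. That scaling also turned IGF2 at 5 min to -0.034 and IGFBP3, IGFBP4 and IGF2 at 10 min to -0.30, -0.28 and -0.30, against a median of all genes of -0.33. Over all genes, ERCC scaling called 4 at 30 min, 9 at 10 against 5 min and 1059 at 240 min. The main fit called 46, 36 and 5676. At 10 min, 30 min and 10 against 5 min limma called 4, 8 and 7 of all genes on log2(TPM + 1). It called 22, 19 and 24 on log2(TPM + 0.1), and 0, 2 and 0 among genes that averaged 1 TPM or more. DESeq2 did not call IGFBP4 at 240 min (-0.37). Without the filter on low counts IGF2 was called at 30 min (0.23) and 240 min (0.38), and 2 genes were called at 10 min, 2 at 10 against 5 min, 1 at 30 against 10 min and 3 at 240 against 30 min. The likelihood ratio test called 2 at 10 min, and with only the times compared 1 was called at 30 min and 2 at 240 against 30 min. Of all genes, 74 were called without the filter at 10 min and 281 at 10 against 5 min. At 30 against 10 min it was 41, and at 240 against 30 min 5373. The likelihood ratio test called 43 of all genes at 10 min. With only the times compared, 39 were called at 30 min and 4736 at 240 against 30 min. Above the median peak score 0 of the 5 genes had an IR peak.

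With 1 library left out, log2 fold changes ranged from -0.40 to -0.30 for IGFBP1 at 30 min and -0.51 to -0.32 at 10 against 5 min, and at 240 min from -0.59 to -0.16 for IGFBP4, -0.023 to 0.33 for IGFBP3 and -0.13 to 0.74 for IGF2. Signs of changes that were not called also turned for IGFBP3 at 5 min (-0.56 to 0.15), 10 min (-0.16 to 0.19) and 30 min (-0.041 to 0.47), IGFBP4 at 10 min (-0.12 to 0.25) and 30 min (-0.17 to 0.092), and IGF2 at 5 min (-0.17 to 0.25), 10 min (-0.013 to 0.043) and 30 min (-0.071 to 0.47). Each of these fits held 1 library at 1 time, so a count of the genes called is not given.

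With a replicate block IGFBP1 stood at -0.48 at 10 min and -2.87 at 240 min, and no call of the 5 genes changed. Replicate differences of 2 times correlated at -0.091 to 0.126 over genes, with 1 of 10 pairs over 0.1, that of 30 and 240 min. The main fit did not pair the libraries. Low correlations over all genes cannot exclude that libraries with the same number share a batch. Over all genes, the calls ranged over settings from 0 to 144 at 5 min, 0 to 74 at 10 min, 2 to 160 at 30 min, 1059 to 5877 at 240 min, 0 to 281 at 10 against 5 min, 1 to 41 at 30 against 10 min and 917 to 5514 at 240 against 30 min. IGFBP3, with 45 to 128 reads in a library, had a 95% interval of -0.26 to 0.63 at 240 min.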

Other observations

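Genes whose levels over the 10 libraries were most like the other 4 genes are given as a description, since the libraries share depth and the differences between replicates. For IGFBP2 they were RWDD2A, DLK1 and APOA2, with Pearson r of log2 CPM of 0.932, 0.904 and 0.892. DLK1, an imprinted gene of fetal liver, had a log2 fold change of -0.58 at 30 min (edgeR quasi-likelihood test, adjusted p = 0.0383) and -0.46 at 240 min (adjusted p = 0.00466), both called, and its libraries at all insulin times were below both 0 min libraries. APOA2, an apolipoprotein of high-density lipoprotein, was called at 240 min, at -0.32 (adjusted p = 0.000644). For IGFBP4 they were CAP1, TMSB10 and RTN4, with r of 0.962, 0.962 and 0.955. CAP1 and TMSB10 both bind actin, and of the 3 RTN4 was called at 240 min, at -0.20 (adjusted p = 0.0106).

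For IGF2 they were AKR1D1, TF and ZNF331, with r of 0.961, 0.912 and 0.901. AKR1D1, an enzyme of bile acid synthesis, was at 44.1 and 34.1 CPM in replicates 1 and 2 at 240 min, and TF, the iron carrier transferrin, at 3993 and 3088 CPM, both with replicate 1 higher as for IGF2. For IGFBP3 they were TLDC1, SLC48A1 and SMARCA4, with r of 0.906, 0.877 and 0.874, none of them called at any time.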
